A study of Mus musculus with 12 samples.

Results

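The genes described are the 6 members of the EGR and NR4A families that T cells switch on after signaling through the T cell receptor (TCR): Egr1, Egr2, Egr3, Nr4a1, Nr4a2 and Nr4a3. They were taken by gene symbol from the raw count files of 12 RNA-seq libraries, where all 6 were found among 40840 gene symbols and all 6 were among the 13570 genes with enough counts to test. The libraries were made from OTII donor T cells, which are CD4+ and carry a TCR transgene that recognizes a peptide of ovalbumin (OVA), after transfer into WT or Il6-/- recipients. Recipients were sensitized intranasally with house dust mite (HDM) extract and OVA, and donor cells were sorted on Day 3 or Day 5, with 3 libraries in each of the 4 groups. The study asked how IL-6 from the recipient shapes the priming of allergen-specific T cells.

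EGR proteins are zinc finger transcription factors, and NR4A proteins are orphan nuclear receptors that act without a known ligand. Genes of both families are immediate early genes: their mRNA appears soon after TCR ligation without new protein synthesis, and their level is widely used as a readout of recent antigen receptor signaling. EGR factors are induced through the ERK pathway and serum response factor, EGR2 and EGR3 are known for restraining T cell responses and for anergy, and NR4A factors are known for limiting T cell activation and for T cell exhaustion.

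The 4 groups were WT recipients on Day 3, Il6-/- recipients on Day 3, WT recipients on Day 5 and Il6-/- recipients on Day 5. The donor cells carried the same OTII transgenes in all groups, and the methods give the same sensitization for all recipients, so that the labelled differences are the recipient genotype and the day. The study's methods and design text give the mediastinal lymph node (mLN) as the tissue and an HDM extract with added LPS, whereas the sample labels give the tissue as blood and do not name LPS. The labels number the days from 1, while the study's own text starts from Day 0. The study describes sorting with antibodies to B220, CD4, CD44 and CD45.1, and it transferred naive donor cells. Il6 had 0 to 5 reads per library and was deleted only in the recipients, so its reads in donor cells do not check the labels. Neither the labels nor the methods say that the replicates came from separate animals, and the p-values measure the spread between these libraries, which may be technical.

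Gene counts summed to between 16125947 and 26111657 in a library. The share of reads assigned to genes was 60.2% to 62.2% on Day 3 and 52.5% to 56.7% on Day 5, so that day and this share move together, and whether the days were sorted or sequenced apart is not given in the sources used here. All 8 CD4 T cell markers, such as Cd3e and Cd4, were detected in all libraries, and all 8 rose from Day 3 to Day 5 in both genotypes. Their summed level on Day 3 was 5731 to 6346 counts per 1e6 counts (CPM) in WT and 5421 to 5562 CPM in Il6-/- recipients. On Day 5 it was 9420 to 9883 and 8296 to 9194 CPM, and the genotypes did not overlap on either day. Cd28 and Cd2 were called lower in Il6-/- recipients on Day 3 (log2 fold change -0.48 and -0.34), and Cd3d on Day 5 (-0.37). On Day 3 the summed level of 8 B cell markers was 6.55 to 8.85 CPM in WT and 13.7 to 14.6 CPM in Il6-/- recipients, which did not overlap, and on Day 5 it was 9.04 to 11.6 and 12.5 to 16.7 CPM, with Blk at 3 reads or fewer in every library. Of the 4 tested, Cd22 was higher in Il6-/- recipients on Day 3 (8.15-fold, adjusted p = 0.00044) and Pax5 lower (log2 fold change -2.26, adjusted p = 0.039), and none was called on Day 5. Klrb1c, an NK cell receptor gene, was 4.30-fold higher in Il6-/- recipients on Day 3 (adjusted p = 7.7e-06), at 20.9 ± 4.75 against 4.82 ± 0.957 CPM. It was the only 1 of 4 tested NK and CD8 T cell markers called on Day 3. The NK gene Klrd1 went the other way without being called (log2 fold change -1.66, adjusted p = 0.24), and Ncr1 had 0 or 1 reads per library. On Day 5 Klrb1c was called lower in Il6-/- recipients (-0.60). The part of the cell type markers in the differences of Egr1, Egr2, Egr3 and Nr4a3 between recipients was not tested. Among the other markers, 10 myeloid and dendritic cell markers summed to 9.66 to 47.3 CPM and 4 lung epithelium markers to 0.475 to 19.7 CPM. The 5 NK and CD8 T cell markers were mostly Cd8b1. They summed to 62.6 to 74.1 CPM in WT and 82.8 to 113 CPM in Il6-/- recipients on Day 3. On Day 5 these sums were 88.2 to 109 and 80.7 to 98.3 CPM, which overlapped. The 2 regulatory T cell markers, mostly Ikzf2, summed to 73.8 to 82.5 and 50.5 to 63 CPM on Day 3, without overlap. On Day 5 they summed to 97.9 to 116 and 85.5 to 103 CPM. In bulk libraries, fewer cells that carry a transcript and less of it per cell cannot be told apart.

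The windows before the start sites of Egr2 and Nr4a1 are shown because they hold the letters of sites for factors that act below the TCR. Each is the 250 bases before the start of the GENCODE vM39 canonical transcript on GRCm39, on the plus strand: chr10:67373442-67373691 for Egr2 and chr15:101164410-101164659 for Nr4a1. Capitals mark the CArG box, the site of serum response factor, in Egr2, and in Nr4a1 a pair of MEF2 boxes, the site of MEF2 factors, followed by 2 copies of the letters TGCGTCA, which resemble the cAMP response element (CRE).
Egr2: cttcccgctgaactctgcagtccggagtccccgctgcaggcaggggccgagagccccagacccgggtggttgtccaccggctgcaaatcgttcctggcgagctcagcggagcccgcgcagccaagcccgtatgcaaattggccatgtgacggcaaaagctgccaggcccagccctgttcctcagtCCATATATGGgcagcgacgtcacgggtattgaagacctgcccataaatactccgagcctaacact
Nr4a1: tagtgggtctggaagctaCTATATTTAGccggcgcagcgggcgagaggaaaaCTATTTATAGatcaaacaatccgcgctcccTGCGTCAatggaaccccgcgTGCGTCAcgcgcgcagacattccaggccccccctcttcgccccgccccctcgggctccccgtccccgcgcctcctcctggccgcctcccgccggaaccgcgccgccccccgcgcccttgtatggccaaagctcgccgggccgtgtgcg

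The CArG box lay 65 bases before the start site of Egr2. The windows of Egr1, Nr4a1, Nr4a2 and Nr4a3 held no CArG box, and that of Egr3 is not reported here. A CArG box was found on either strand in 1.4% of 21747 promoter windows of the same length. In Nr4a1 the MEF2 boxes lay 232 and 198 bases before the start. At least 1 such box was found in 0.506% of all windows, and none in those of Egr1, Egr2, Nr4a2 and Nr4a3. The letters TGCGTCA lay 168 and 148 bases before the start of Nr4a1, and were present at least 1 time in 1.72% of all windows. The window of Egr1, which is not printed, held TGCGTCA 1 time. The shorter TGACG, the core letters of the CRE, lies within the full CRE and within the other strand of TGCGTCA. It occurred 2 times in each of the windows shown, 3 times in that of Nr4a3, 1 time in that of Egr1 and not in that of Nr4a2, and at least 1 copy was present in 18% of all windows. The letters TGCGTCA and TGACG were chosen after the sequences were read, and the matches given here cover the windows of 5 of the 6 members. The full CRE (TGACGTCA), the EGR site (GCGTGGGCG) and the NR4A monomer site (AAAGGTCA) were not found in the windows of Egr1, Egr2, Nr4a1, Nr4a2 and Nr4a3, which says only that these letters are not there.

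Egr1 was called lower in cells from Il6-/- recipients on both days, Egr2 on Day 3 and Egr3 on Day 5. Egr2 was also lower on Day 5 without being called, and for no member was the difference between the days itself called. Of the NR4A genes Nr4a3 alone was called between recipients, on Day 3 and in the other direction. A gene was called at an adjusted p under 0.05 by edgeR's quasi-likelihood test with Benjamini-Hochberg adjustment over all genes tested. On Day 3, 3 of 6 members were called, Egr1 and Egr2 lower and Nr4a3 higher in Il6-/- recipients, against 13.7% of all genes tested, of which 7.52% were higher and 6.19% lower. The split over all genes depended on the scaling of libraries, with 1021 higher and 840 lower after TMM scaling, 791 and 974 after upper-quartile scaling and 703 and 1088 with no scaling. Of the 3 members called only Nr4a3 reached a 2-fold change as well, against 2.74% of all genes. Its log2 fold change of 1.00 lay at that limit, and was 0.839 to 1.22 when 1 library was left out. On Day 5, 2 of 6 members were called, Egr1 and Egr3, both lower, against 4.61% of all genes, of which 1.27% were higher and 3.35% lower (172 and 454 genes, or 273 and 396 with no scaling), and no member reached 2-fold, against 1.14% of all genes. The median log2 fold change over the 6 members was -0.03 on Day 3 and -0.16 on Day 5, beside 0.01 over all genes tested on each day. It was -0.46 and -0.52 over the 3 EGR genes and 0.53 and -0.02 over the 3 NR4A genes.

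From Day 3 to Day 5 all 6 members rose in both genotypes. The background for this comparison was high: 56.7% of all genes tested were called in WT recipients, of which 29.5% were higher and 27.1% lower, and 60.5% in Il6-/- recipients, of which 30.4% were higher and 30.1% lower. With upper-quartile scaling the split moved from 4004 higher and 3684 lower to 5394 and 2712 in WT, and from 4122 and 4089 to 5615 and 3025 in Il6-/- recipients, where it was 5089 and 3340 with no scaling. A 2-fold rise was reached by 5 of 6 members in each genotype, all but Egr1, against 22.1% of all genes called with a 2-fold change in either direction in WT and 25.9% in Il6-/- recipients. The median log2 fold change over the members was 1.67 in WT and 1.59 in Il6-/- recipients, beside 0.09 over all genes in each. The day comparisons and the genotype comparisons share libraries and are not independent of each other.

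**Figure D1:**
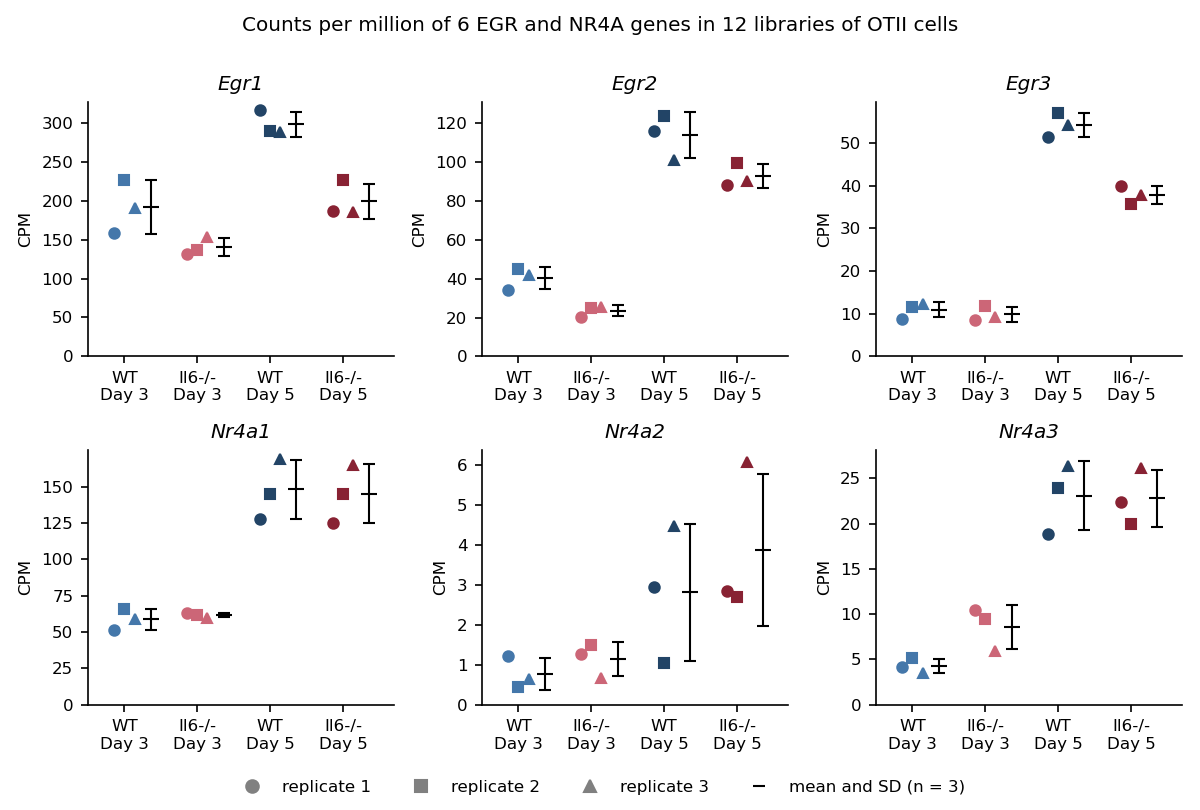
CPM of each gene (y axis, starting at 0) in the 12 libraries by group (x axis), with replicates 1, 2 and 3 as circle, square and triangle and the mean ± SD (n = 3) in black. Egr1 and Egr2 lie lower in Il6-/- than in WT recipients on both days, Nr4a3 lies higher on Day 3 only, and every gene has its highest mean on Day 5.

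Levels between genes were compared per length, as reads per kilobase of exon, scaled as CPM are (RPKM). The length was the union of all annotated exons of a gene, 4496 bases for Egr1, 3405 for Egr2 and 10903 for Nr4a1. The order of genes depends on these lengths, and which transcripts the cells used was not tested. Egr1 was the most abundant member in every group, with 42.7 RPKM in WT and 31.1 RPKM in Il6-/- recipients on Day 3 and 66.3 and 44.4 RPKM on Day 5. On this scale Egr1 in WT recipients on Day 5 stood above 95.7% of the 12596 tested genes that have a length. Egr2 came next by RPKM, with 11.9 and 6.89 RPKM on Day 3 and 33.5 and 27.2 RPKM on Day 5. In CPM, however, Nr4a1 lay above Egr2 in every group. The means were 58.7 against 40.4 CPM in WT and 61.4 against 23.5 CPM in Il6-/- recipients on Day 3. On Day 5 they were 148 against 114 and 145 against 92.7 CPM. Nr4a1 lay above Egr3 on Day 3, at 5.38 and 5.63 RPKM against 2.31 and 2.10 RPKM. On Day 5 the places of Nr4a1 and Egr3 were closer, at 13.5 ± 1.88 against 11.5 ± 0.614 RPKM in WT recipients, a difference no larger than the sum of the SDs, and at 13.3 ± 1.86 against 8.02 ± 0.456 RPKM in Il6-/- recipients. Egr2 and Nr4a1 were also near each other in Il6-/- recipients on Day 3, at 6.89 ± 0.868 and 5.63 ± 0.140 RPKM (SD, n = 3 throughout). Nr4a3 reached 0.712 and 1.43 RPKM on Day 3 and 3.85 and 3.81 RPKM on Day 5. Nr4a2 was the least abundant member, from 0.0936 RPKM in WT recipients on Day 3, above 5.95% of genes, to 0.473 RPKM in Il6-/- recipients on Day 5.

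Egr1 (ENSMUSG00000038418, GRCm39 chromosome 18, 34992876 to 34998049, plus strand) is the family member that responds broadly to mitogens and stress as well as to the TCR. On Day 3 its level was 158, 227 and 190 CPM in the WT libraries and 131, 136 and 153 CPM in the Il6-/- libraries. On Day 5 it was 317, 290 and 288 CPM in the WT libraries and 187, 226 and 186 CPM in the Il6-/- libraries. All Il6-/- libraries lay below all WT libraries of the same day, and the Day 5 Il6-/- libraries covered about the same range as the Day 3 WT libraries. Egr1 fell in Il6-/- recipients on Day 3, from a mean of 192 ± 34.5 to 140 ± 11.6 CPM, with a log2 fold change of -0.46 (SE 0.118, adjusted p = 0.018). It fell on Day 5 as well, from 298 ± 16.0 to 199 ± 22.8 CPM, with a log2 fold change of -0.58 (SE 0.118, adjusted p = 0.011). Both calls depended on single libraries. The Day 3 call was lost when WT replicate 2 (adjusted p = 0.12), WT replicate 3 (0.052), Il6-/- replicate 1 (0.085) or Il6-/- replicate 2 (0.074) was left out, and the Day 5 call when WT replicate 1 or Il6-/- replicate 3 was left out (0.058 for each), with the direction kept each time.

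Egr1 rose least of the 6 members from Day 3 to Day 5. Its log2 fold change was 0.63 in WT (SE 0.118, adjusted p = 0.00030) and 0.51 in Il6-/- recipients (SE 0.118, adjusted p = 0.0016), and in both genotypes the libraries of the days did not overlap. Smap2, Cyb5a and Acbd5 had the patterns nearest to that of Egr1 over the 12 libraries, with root mean square differences of 0.15, 0.15 and 0.16 in log2 CPM after each gene was centred on its own mean.

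Egr2 (ENSMUSG00000037868, chromosome 10, 67371305 to 67378018, plus strand) encodes a factor that is needed for T cell anergy and that limits effector responses. Its Day 3 level was 34.1, 45.2 and 41.7 CPM in the WT libraries and 20.1, 24.9 and 25.4 CPM in the Il6-/- libraries. On Day 5 it was 116, 124 and 101 CPM in the WT libraries and 88.0, 99.8 and 90.2 CPM in the Il6-/- libraries. Each WT library stood above each Il6-/- library of its day, by a wide margin on Day 3 and by a narrow margin on Day 5, where the lowest WT and the highest Il6-/- library were 101 and 99.8 CPM. Egr2 fell in Il6-/- recipients on Day 3, from 40.4 ± 5.68 to 23.5 ± 2.95 CPM, which is 1.72-fold lower (log2 fold change -0.78, SE 0.122, adjusted p = 0.00078). This call was kept when any 1 of the 12 libraries was left out, with adjusted p between 0.00044 and 0.0064. A log2 fold change at least as low was found for 6.99% of all genes tested on that day.

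On Day 5 Egr2 averaged 114 ± 11.6 CPM with WT and 92.7 ± 6.26 CPM with Il6-/- recipients, with a log2 fold change of -0.30 (95% interval -0.55 to -0.05, adjusted p = 0.16), which was not called. The same-numbered Day 5 libraries of the 2 genotypes deviated together, and with the replicate number as a block within each day the log2 fold change was again -0.30 with an adjusted p of 0.024, a fit that called 11.7% of all genes on Day 5. From Day 3 to Day 5 Egr2 rose in WT recipients, with a log2 fold change of 1.5 (SE 0.120, adjusted p = 1e-07), and in Il6-/- recipients, with 1.98 (SE 0.123, adjusted p = 1.3e-08), which makes 2.83-fold and 3.95-fold. The nearest patterns to Egr2 were those of Slc41a3, Lpar6 and 2010016I18Rik, with root mean square differences of 0.17, 0.18 and 0.19.

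Egr3 (ENSMUSG00000033730, chromosome 14, 70314350 to 70320063, plus strand) acts with EGR2 in restraining T cell activation. It was measured at 8.86, 11.6 and 12.2 CPM in the WT libraries and at 8.55, 11.8 and 9.24 CPM in the Il6-/- libraries on Day 3. On Day 5 it was at 51.4, 57.1 and 54.2 CPM in the WT libraries and at 39.9, 35.6 and 37.8 CPM in the Il6-/- libraries. The Day 3 groups overlapped, and the Day 5 groups were apart with little spread within each. The Day 3 log2 fold change was -0.13 (95% interval -0.44 to 0.17, adjusted p = 0.61). On Day 5 Egr3 fell in Il6-/- recipients from 54.2 ± 2.89 to 37.8 ± 2.15 CPM, which is 1.44-fold lower (log2 fold change -0.52, SE 0.129, adjusted p = 0.033). That call was lost when WT replicate 1 (adjusted p = 0.077), WT replicate 2 (0.11), Il6-/- replicate 2 (0.15) or Il6-/- replicate 3 (0.087) was left out.

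Egr3 had the steepest rise of the EGR genes in WT recipients, 5.00-fold from Day 3 to Day 5 (log2 fold change 2.32, SE 0.139, adjusted p = 1.6e-08), and rose 3.82-fold in Il6-/- recipients (log2 fold change 1.94, SE 0.140, adjusted p = 3.3e-08). A log2 fold change at least as high was found for 2.63% and 5.51% of all genes. Gm36677, H2-Q9 and Izumo4 were nearest to Egr3, with root mean square differences of 0.18, 0.20 and 0.20. Among the members, Egr2 and Egr3 were nearest to each other, with a root mean square difference of 0.33. Egr2 took place 66 in the order of genes nearest to Egr3, and Egr3 took place 158 in the order for Egr2, so that other genes lay nearer to each.

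Nr4a1 (ENSMUSG00000023034, chromosome 15, 101151980 to 101172681, plus strand) encodes NUR77, the NR4A factor most used as a reporter of TCR signal strength. On Day 3 it stood at 51.1, 65.8 and 59.1 CPM in the WT libraries and 62.7, 61.6 and 59.7 CPM in the Il6-/- libraries. On Day 5 it stood at 128, 145 and 169 CPM in the WT libraries and 125, 145 and 165 CPM in the Il6-/- libraries. The genotypes overlapped on both days, and the days did not overlap. The log2 fold change between recipients was 0.07 on Day 3 (95% interval -0.19 to 0.32, adjusted p = 0.79) and -0.03 on Day 5 (95% interval -0.28 to 0.22, adjusted p = 0.93). Nr4a1 rose from Day 3 to Day 5 by 2.52-fold in WT (log2 fold change 1.33, SE 0.121, adjusted p = 3.3e-07) and 2.36-fold in Il6-/- recipients (1.24, SE 0.121, adjusted p = 5.2e-07). The exons of Nr4a1 overlap those of Gm63180, which was not among the counted genes, and the counting did not use strand. Rab12, Mmd and Orai3 were nearest in pattern, with root mean square differences of 0.16 each.

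Nr4a2 (ENSMUSG00000026826, chromosome 2, 56996842 to 57014331, minus strand) encodes NURR1 and had the fewest reads of the members. It had 31, 9 and 12 reads in the WT and 24, 28 and 14 reads in the Il6-/- libraries on Day 3, or 0.445 to 1.21 and 0.664 to 1.49 CPM. On Day 5 it had 58, 20 and 95 reads in the WT and 54, 46 and 117 reads in the Il6-/- libraries, or 1.04 to 4.47 and 2.70 to 6.09 CPM. Replicate 3 was the highest library in both Day 5 groups, and the genotypes overlapped on both days. The log2 fold change between recipients was 0.53 on Day 3 (95% interval -0.69 to 1.75, adjusted p = 0.62) and 0.46 on Day 5 (95% interval -0.60 to 1.52, adjusted p = 0.68). These intervals were the widest of the 6 members, and the libraries of a group differed by up to 4.3-fold. Nr4a2 rose from Day 3 to Day 5 in WT (log2 fold change 1.84, SE 0.547, adjusted p = 0.0097) and in Il6-/- recipients (1.77, SE 0.532, adjusted p = 0.0095). In WT recipients the days overlapped, and the call was lost without WT Day 5 replicate 3 (adjusted p = 0.062); in Il6-/- recipients it was lost without Il6-/- Day 5 replicate 3 (0.069). Its nearest patterns, those of Gem, LOC115487771 and C230024C17Rik, were far by comparison, at 0.41, 0.43 and 0.43.

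Nr4a3 (ENSMUSG00000028341, chromosome 4, 48045153 to 48086447, plus strand) encodes NOR1. On Day 3 it had 4.17, 5.09 and 3.53 CPM in the WT libraries and 10.5, 9.44 and 5.88 CPM in the Il6-/- libraries. On Day 5 it had 18.9, 23.9 and 26.4 CPM in the WT libraries and 22.4, 19.9 and 26.1 CPM in the Il6-/- libraries. The Day 3 groups did not overlap, although Il6-/- replicate 3 lay near the WT libraries, and the Day 5 groups covered the same range. Nr4a3 was the only member called higher in Il6-/- recipients, on Day 3. It rose 2.01-fold from 4.27 ± 0.786 to 8.59 ± 2.40 CPM (log2 fold change 1.00, SE 0.220, adjusted p = 0.0072). The call was kept when any 1 of the 12 libraries was left out, with adjusted p up to 0.044. A log2 fold change at least as high was found for 2.79% of all genes tested. On Day 5 the log2 fold change was -0.02 (95% interval -0.43 to 0.40, adjusted p = 0.98). From Day 3 to Day 5 it rose 5.39-fold in WT (log2 fold change 2.43, SE 0.217, adjusted p = 2.8e-07) and 2.66-fold in Il6-/- recipients (1.41, SE 0.206, adjusted p = 2.8e-05). Ccnd2, which encodes a cyclin that drives entry into the cell cycle, Tnfsf8 and Dhrs3 were nearest to it, with root mean square differences of 0.29, 0.30 and 0.30.

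The groups of the 2 genotypes did not overlap for 3 of 6 members on Day 3 (Egr1, Egr2 and Nr4a3), against 36.2% of all genes tested, and for 3 of 6 on Day 5 (Egr1, Egr2 and Egr3), against 19.6%. Day 3 and Day 5 did not overlap for 5 of 6 members in WT, all but Nr4a2, against 63.3% of all genes, and for 6 of 6 in Il6-/- recipients, against 65.8%.

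**Figure D2:**
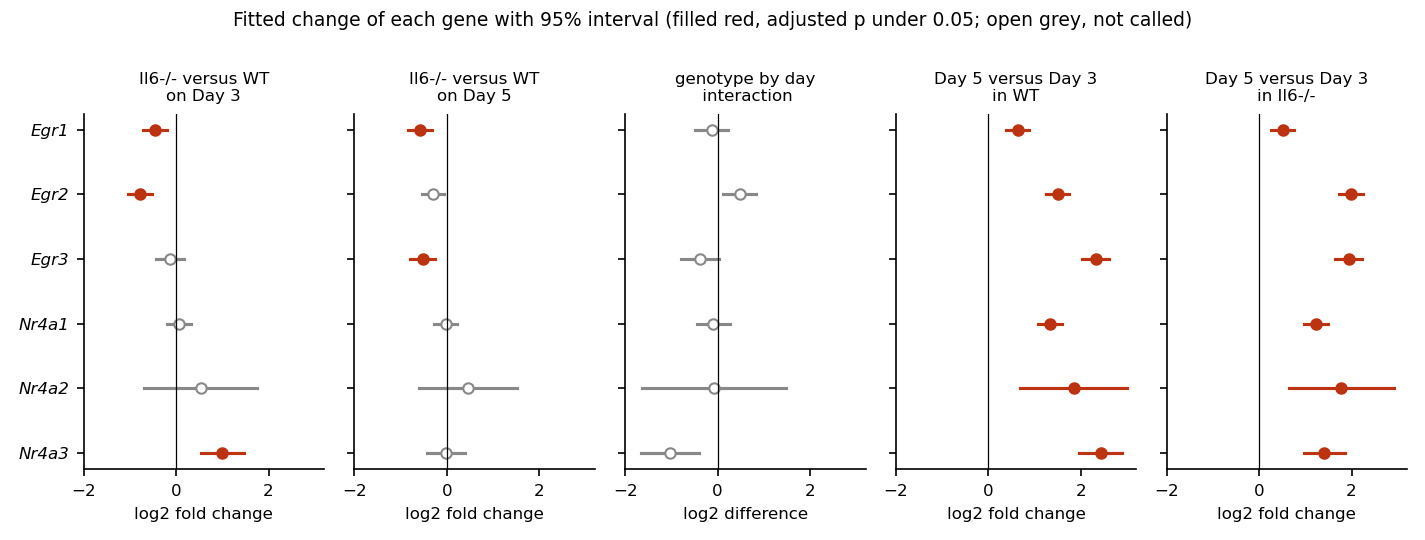
Fitted log2 fold change (x axis) of each gene (y axis) with its 95% interval in the 5 comparisons, where filled red points have an adjusted p under 0.05 and open grey points do not. In the day comparisons all 6 genes lie to the right of 0, in the genotype comparisons 3 genes on Day 3 and 2 on Day 5 are called, and no gene is called for the interaction.

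An interaction term, the Day 5 effect of the recipient minus its Day 3 effect, compared the days. The test called 0 of 6 members, against 4.92% of all genes, and 2 members had an unadjusted p under 0.05 by edgeR's quasi-likelihood test. For Nr4a3 the difference was -1.02 on the log2 scale (95% interval -1.65 to -0.39, unadjusted p = 0.0035, adjusted p = 0.060). For Egr2 it was 0.48 (95% interval 0.12 to 0.84, unadjusted p = 0.012, adjusted p = 0.12). Neither passed the threshold, and a difference between the days was not shown by this test. DESeq2 called Nr4a3 (adjusted p = 0.018), as did the fit without a low-count filter (0.0021), which also called Egr2 (0.034). With the replicate number as a block within each day both were called, Nr4a3 at 0.010 and Egr2 at 0.014. That fit called 11.5% of all genes. The labels do not pair the libraries, and same-numbered libraries of the genotypes deviated together on Day 5 alone. Egr2 was called when WT Day 3 replicate 1 was left out (adjusted p = 0.047), and Nr4a3 when Il6-/- Day 3 replicate 3 was left out (0.021). For Egr3, called on Day 5 alone, the difference was -0.39 (95% interval -0.80 to 0.02, adjusted p = 0.28), which was not called.

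Ratios of the reads of 2 members within a library do not depend on the scaling of libraries and are given as a description, chosen after the values were seen. In WT recipients on Day 3 there were 8.45 to 12.2 Nr4a3 reads per 100 Egr2 reads, and in Il6-/- recipients 23.1 to 52.1. On Day 5 these ratios were 16.3 to 26.0 and 19.9 to 29.0, so that the genotypes were apart on Day 3 and overlapped on Day 5. Nr4a1 gave 28.9 to 32.3 reads per 100 Egr1 reads in WT and 39.0 to 47.9 in Il6-/- recipients on Day 3, and 40.6 to 58.8 against 64.1 to 89.0 on Day 5, apart on both days. Egr3 gave 25.6 to 29.3 reads per 100 Egr2 reads in WT recipients on Day 3 and 36.4 to 47.4 in Il6-/- recipients, and 44.2 to 53.4 against 35.6 to 45.3 on Day 5. Egr2 gave 19.9 to 21.9 reads per 100 Egr1 reads in WT and 15.3 to 18.4 in Il6-/- recipients on Day 3, and 35.2 to 42.8 against 44.2 to 48.6 on Day 5, with the higher genotype changing place between the days.

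**Figure D3:**
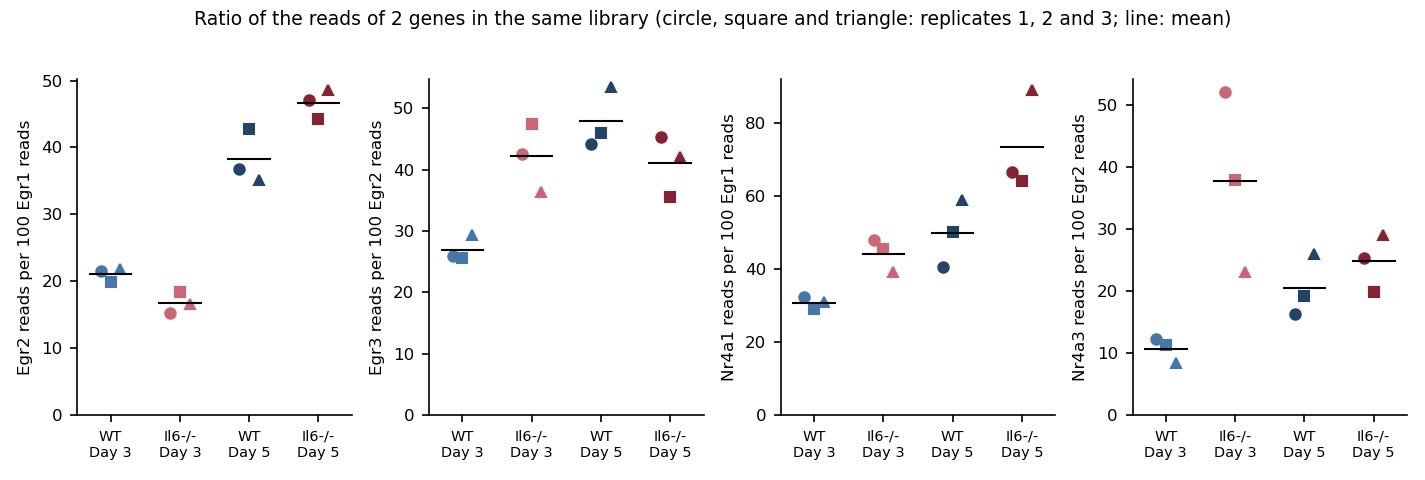
Reads of a gene per 100 reads of another gene in the same library (y axes, starting at 0) by group (x axis), with replicates 1, 2 and 3 as circle, square and triangle and the mean as a line. Nr4a3 per 100 Egr2 reads was 8.45 to 12.2 in WT and 23.1 to 52.1 in Il6-/- recipients on Day 3.

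The members can bind DNA with or through partners, and 6 relatives and partners were measured. Egr4, the remaining EGR family gene, was at 0.265 to 1.35 CPM and was not called in any comparison, and Rxrg was under the low-count filter. Nab1 and Nab2 encode corepressors that bind EGR proteins. Nab2 rose slightly with the day, from 107 ± 4.88 to 138 ± 2.92 CPM in WT (log2 fold change 0.37, adjusted p = 0.0016) and from 114 ± 6.26 to 139 ± 14.6 CPM in Il6-/- recipients (0.29, adjusted p = 0.0070), and Nab1 was not called, with log2 fold changes between -0.15 and 0.07.

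Rxra encodes RXRα, a nuclear receptor that can pair with NR4A1 and NR4A2. It had 47.0, 41.0 and 31.8 CPM in the WT and 136, 125 and 107 CPM in the Il6-/- libraries on Day 3, and 48.1, 45.1 and 50.3 against 81.4, 80.2 and 61.1 CPM on Day 5. The lowest Il6-/- library of either day was above the highest WT library. Rxra rose in Il6-/- recipients on Day 3 (log2 fold change 1.62, SE 0.142, adjusted p = 8.3e-06) and on Day 5 (0.63, SE 0.140, adjusted p = 0.019), and the difference between the days was itself called (-0.98, adjusted p = 0.014). Rxrb fell in Il6-/- recipients on Day 5, from 48.4 ± 13.4 to 27.2 ± 1.24 CPM (log2 fold change -0.83, adjusted p = 0.020). Of the 5 partners tested, 1 was called on Day 3, against 13.7% of all genes, and 2 on Day 5, against 4.61%, and the Day 5 count fell to 0 without WT replicate 1, WT replicate 2 or Il6-/- replicate 2 of that day and to 1 without Il6-/- replicate 3.

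Among 20 tested immediate early genes other than the members, 13 rose from Day 3 to Day 5 in WT recipients and none fell, and in Il6-/- recipients 13 rose and 1 fell. Of all genes, 29.5% rose and 27.1% fell in WT, and 30.4% rose and 30.1% fell in Il6-/- recipients. The median log2 fold change was 0.98 and 1.28. Fos, the partner of Jun proteins in the AP-1 factor, was at 35.5, 31.0 and 18.6 CPM in WT and 20, 15.8 and 12.1 CPM in Il6-/- libraries on Day 3 and at 194, 110 and 170 and at 188, 76.1 and 169 CPM on Day 5. It rose with the day (log2 fold change 2.47, adjusted p = 8.7e-06 in WT; 3.18, adjusted p = 9.1e-07 in Il6-/- recipients), as did Junb in WT recipients (1.75, adjusted p = 2.8e-05). The counts of called genes were between 11 and 15 in WT and 11 and 14 in Il6-/- recipients when any 1 library was left out.

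Between recipients, the immediate early genes that were called were lower in Il6-/- recipients. On Day 3 these were 3 of 20, Zfp36 (log2 fold change -0.94, adjusted p = 0.0017), which encodes a protein that destabilizes mRNA, Jun (-1.15, adjusted p = 0.030) and Klf2 (-0.86, adjusted p = 0.047), a factor of quiescent and migrating T cells. On Day 5 these were 2 of 20, Dusp2 (-0.64, adjusted p = 0.0052), a phosphatase of ERK, and Ier5 (-0.97, adjusted p = 0.035). The count ranged from 1 to 4 on Day 3 and from 1 to 3 on Day 5 when any 1 library was left out. The median over the 20 genes was -0.21 on Day 3 and -0.12 on Day 5. The backgrounds for these counts are the 13.7% and 4.61% of all genes given above. Lower calls made up 6.19% and 3.35% of all genes. In some of the other fits up to 1 gene of the list was called higher on either day. Without WT Day 3 replicate 1 or Il6-/- Day 3 replicate 2 the Day 3 count was 1.

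The Day 5 replicates differed from each other in some immediate early genes and members. Replicate 2 was the lowest library in both genotypes for 9 of the 20 immediate early genes, Fos, Fosb, Jun, Junb, Ier2, Zfp36, Klf4, Klf6 and Dusp1, and 12.4% of all genes tested had it lowest in both. Among the members replicate 2 was lowest in both genotypes for Nr4a2 alone and highest in both for Egr2, and Egr3 had it highest in WT and lowest in Il6-/- recipients. Replicate 3 was the highest library in both genotypes for Nr4a1, Nr4a2 and Nr4a3, and 11.2% of all genes had it highest in both. This pattern was noticed in the data and was not tested.

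**Figure D4:**
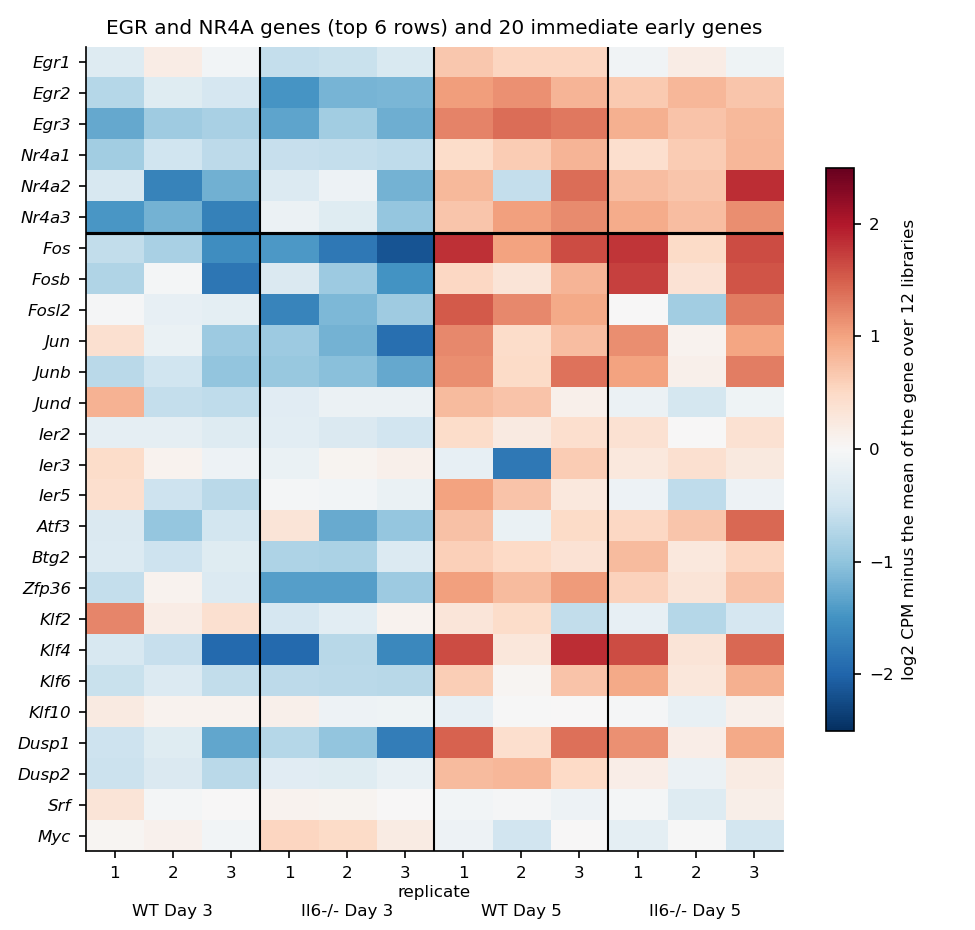
Log2 CPM minus the mean of the gene over the 12 libraries (color) for the 6 members and 20 immediate early genes (rows) in each replicate of each group (columns). Day 5 columns are mostly above the mean, and replicate 2 of both Day 5 groups lies lower than the other replicates for Fos, Junb and Dusp1 but not for Egr2.

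Of 20 tested genes that TCR signals induce, 8 rose and 1 fell in Il6-/- recipients on Day 3. The median log2 fold change over the 20 was 0.35. Over all genes, 7.52% were higher and 6.19% lower on Day 3, and 1.27% and 3.35% on Day 5. With the day, 56.7% of all genes were called in WT and 60.5% in Il6-/- recipients. Irf8 (1.19, adjusted p = 5.9e-05), Nfkbid (0.59, adjusted p = 0.00036), which encodes an NF-κB regulator, and Il2ra (1.59, adjusted p = 0.00097), the α chain of the IL-2 receptor, rose, and Icos, a costimulatory receptor of follicular helper cells, fell (-1.04, adjusted p = 9.6e-06). On Day 5, 1 rose, Irf8 (0.90, adjusted p = 0.0025), and 1 fell, Nfatc1 (-0.36, adjusted p = 0.044), with a median of 0.03. With the day, 13 rose and 3 fell in WT recipients, and 8 rose and 4 fell in Il6-/- recipients; Tnfrsf9, which encodes 4-1BB, rose by 1.61 (adjusted p = 1.2e-07) and by 1.00 (adjusted p = 8.2e-06) on the log2 scale, and Il2ra, which is also driven by IL-2, fell by 3.15 and 3.68 (adjusted p = 6.8e-07 and 7.4e-08). When any 1 library was left out, the number called was 7 to 9 on Day 3, 1 to 4 on Day 5, and 10 to 16 and 10 to 13 with the day. The Day 5 count was 4 without WT Day 5 replicate 3.

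In a list of 14 genes linked to EGR factors in anergy, 2 rose and 2 fell in Il6-/- recipients on Day 3. The share called over all genes was 13.7% on Day 3 and 4.61% on Day 5. It was 56.7% with the day in WT and 60.5% in Il6-/- recipients. Nrn1 (log2 fold change 1.94, adjusted p = 0.00020) and Nrp1 (1.11, adjusted p = 0.0025) rose, and Dgka, a diacylglycerol kinase that dampens TCR signals (-0.69, adjusted p = 0.00011), and Ikzf1 (-0.31, adjusted p = 0.026) fell. Nrn1 and Nrp1 also rose on Day 5 (1.53 and 0.95, adjusted p = 0.0025 and 0.012), the only 2 called. With the day, 7 rose and 3 fell in WT and 9 rose and 2 fell in Il6-/- recipients, among them Izumo1r (2.48 and 1.97, adjusted p = 3.3e-08 and 1.2e-07) and Dgkz (1.39 and 1.51, adjusted p = 2.8e-07 and 1.1e-07), another diacylglycerol kinase. The Day 5 count ranged from 1 to 3 when any 1 library was left out, and was 1 without WT Day 5 replicate 1, WT Day 5 replicate 2 or Il6-/- Day 5 replicate 3.

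In a list of 10 tested inhibitory receptor genes and TOX factors linked to NR4A factors, 3 fell and none rose in Il6-/- recipients on Day 3: Tox2 (log2 fold change -2.20, adjusted p = 7.7e-06), Tigit (-2.80, adjusted p = 0.0016) and Btla (-0.38, adjusted p = 0.011). On Day 5 Tox2 fell (-0.68, adjusted p = 0.036) and Entpd1, which encodes CD39, rose (1.20, adjusted p = 0.048), a count of 2 that was 0 without WT Day 3 replicate 2, WT Day 5 replicate 2, Il6-/- Day 5 replicate 2 or any of the Il6-/- Day 3 libraries. With the day, 5 rose and 1 fell in WT and 7 rose and 1 fell in Il6-/- recipients, among them Tox (0.83 and 0.84, adjusted p = 4.7e-07 and 3e-07) and Lag3 (1.90 and 1.81, adjusted p = 3.1e-06 and 5.1e-06). Over all genes, 13.7% were called on Day 3 and 4.61% on Day 5. The day background was 56.7% of all genes in WT, near the 6 of 10 called here. It was 60.5% in Il6-/- recipients, beside 8 of 10 here.

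Upstream of the members, 28 genes of the TCR, calcium and ERK pathways were tested. In Il6-/- recipients on Day 3 Prkcq, the protein kinase C of the T cell synapse (log2 fold change -0.64, adjusted p = 0.00017), and Lat, the adaptor below ZAP70 (-0.46, adjusted p = 0.00099), fell. On Day 5, 3 of the 28 fell, among them Map2k2, which encodes the kinase MEK2 (-0.75, adjusted p = 0.0044), and Elk4, a partner of serum response factor at the CArG box (-0.90, adjusted p = 0.010). No gene of the list rose on either day, and the 2 of 28 called on Day 3 were a smaller share than the 13.7% of all genes, while the 3 of 28 on Day 5 stood against 4.61%. The Day 3 count was 5 without Il6-/- Day 5 replicate 2, and the Day 5 count was 1 without WT Day 5 replicate 1 or 2 and 6 without WT Day 5 replicate 3. The medians over the list were -0.10 and -0.03, beside 0.01 over all genes. With the day, 8 rose and 5 fell in WT and 11 rose and 8 fell in Il6-/- recipients, against 56.7% and 60.5% of all genes called.

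Heat shock genes respond to stress and to the handling of tissue, as immediate early genes also can. The summed level of 13 such genes on Day 3 was 5911 to 7502 CPM with WT and 8502 to 10079 CPM with Il6-/- recipients, and 3602 to 3997 against 4539 to 5728 CPM on Day 5, and was mostly Hsp90ab1 and Hspa8. Of 12 tested, 5 rose and none fell in Il6-/- recipients on Day 3, against 7.52% higher over all genes. Among the 5 were Hspe1 (log2 fold change 0.85, adjusted p = 0.00012) and Hspd1 (0.76, adjusted p = 0.00026). On Day 5, 3 rose, Hspa1a, Hsp90ab1 and Dnajb1, against 1.27% higher over all genes. Hspa1a, an inducible HSP70 gene, had 21.6, 3.84 and 15.3 CPM in the WT and 232, 32.4 and 186 CPM in the Il6-/- libraries on Day 5. It rose most of the list (log2 fold change 3.46, adjusted p = 0.048), and like Fos it was lowest in replicate 2 of both groups. On Day 3 its log2 fold change was -0.62 (adjusted p = 0.74). The Day 3 count ranged from 3, without WT Day 3 replicate 2, to 7 when any 1 library was left out. The Day 5 count was 0 without WT Day 5 replicate 1 or 2, Il6-/- Day 3 replicate 2 or 3, or Il6-/- Day 5 replicate 3, and 5 without WT Day 3 replicate 1. With the day, 7 fell in each genotype and 2 and 5 rose, while all 6 EGR and NR4A genes rose. Of all genes, 27.1% fell and 29.5% rose in WT, and 30.1% fell and 30.4% rose in Il6-/- recipients. The part of heat shock or handling in the differences of the members between recipients was not tested.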

How the data were processed

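RNA was measured in 12 libraries of sorted donor OTII cells, 3 for each recipient genotype and day. The deposited values are raw counts of single-end reads per gene symbol, which the authors made from poly(A) RNA libraries with ultra-low input amplification. Per the submitters' processing notes the tools were Trim Galore 0.4.4, STAR 2.5.2a, HTSeq 0.6.1p1, FastQC, MultiQC and edgeR, on GRCm39, and counting did not use strand, so reads of overlapping genes on opposite strands could not be told apart. A deposited table of log2 CPM was not used here.

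Counts were analysed in R 4.3.3 with edgeR 4.0.16: filterByExpr kept 13570 genes, libraries were scaled by TMM, and 1 quasi-likelihood model with a coefficient for each of 4 groups was fitted to all 12 libraries, with Benjamini-Hochberg adjustment over all genes tested and a threshold of 0.05. CPM in the text are TMM-scaled, ± is the SD over 3 libraries, and RPKM used GENCODE vM39 exon lengths. Counts of 3 or fewer were taken as the floor, 0.115 to 0.186 CPM, which covers counting error only. The fit was tested on simulated data. Other scalings, filters, DESeq2 1.42.0, limma 3.58.1 (voom), glmTreat, a GC-content offset, replicate blocks and leaving out each library were tried.

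The members and gene lists were chosen with earlier results of these data known. The genes named were the members, their partners, up to 4 genes with the smallest p of each list in the comparison described, and the 3 genes nearest in pattern to each member. Fos and Junb in the day comparison, the genes of the replicate pattern, the heat shock genes and the markers were named beside this rule. Same-numbered Day 5 libraries of the genotypes deviated together (correlations 0.243, 0.206 and 0.129), whereas those of Day 3 did not (0.0333, 0.0599 and 0.0325). The main fit did not pair libraries, and replicate number entered only the block fits given beside it. Some items that this rule would name are not reported here.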

Additional observations from a re-analysis of the deposited data

How the results depend on the processing

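The number of members called did not change with the other scalings, the stricter filter, limma-voom, the GC-content offset or the fit of 6 libraries alone. Against a 2-fold change (glmTreat), 0 members were called on Day 3 and 0 on Day 5, 4 in the day comparison in WT (Egr2, Egr3, Nr4a1 and Nr4a3) and 2 in that in Il6-/- recipients (Egr2 and Egr3). With a 2-fold limit beside the threshold, 1 was called on Day 3 and 0 on Day 5. The 1 on Day 3, Nr4a3, lay at the limit, with log2 fold changes of 0.948 to 1.01 over the other settings. The interaction called 2 members without the low-count filter, 1 with DESeq2 and 2 with the replicate block within day, which called 3 on Day 5. Leaving out 1 library gave 0 to 2 members on Day 5 and 0 to 1 for the interaction. A replicate block over all 12 libraries left the counts of members at 3, 2, 0, 6 and 6. Values near 0 changed sign: on Day 5 Nr4a1 was 0.0156 with no scaling, and the Nr4a3 log2 fold change, Il6-/- versus WT on Day 5, was 0.00696 with RLE scaling, 0.0265 with no scaling and 0.00689 with DESeq2; for the interaction Nr4a1 was 0.00535 and Nr4a2 0.0237 with no scaling, and Nr4a2 0.0526 with limma-voom. Leaving out 1 library gave Nr4a1 -0.0247 to 0.157 on Day 3, -0.132 to 0.0824 on Day 5 and -0.198 to 0.0157 for the interaction, Nr4a2 -0.0239 to 0.959 on Day 5 and -0.587 to 0.427 for the interaction, and Nr4a3 -0.14 to 0.0985 on Day 5. The cause was not tested. The median of all genes from Day 3 to Day 5 moved from 0.09 to 0.29 in WT and 0.32 in Il6-/- recipients with upper-quartile scaling. Over all genes, 626 were called on Day 5 and 668 for the interaction, against 1127 and 1136 with DESeq2, 1397 and 1300 without the filter, 1592 and 1564 with the block within day, and 359 on Day 5 with 6 libraries alone. The glmTreat fit called 35, 1, 4, 1180 and 1530 genes over the 5 comparisons, where the edgeR test called 1861, 626, 668, 7688 and 8211. Nr4a2 had 9 to 117 reads a library.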
